A study of Mus musculus with 32 samples.

Results

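Oligodendrocyte progenitor cells (OPCs) of the adult and of the neonatal mouse were compared while both were under lysine acetyltransferase inhibition. The comparison took every library of the series whose column name carries the acetyltransferase inhibitor tag, which are 9 of 32 libraries: 4 adult and 5 neonatal. All tested genes entered it, as adult minus neonatal. The cells came from the cortex of wild-type C57BL/6 mice at postnatal day 60 (adult) or postnatal day 5 (neonatal), were selected on the O4 surface antigen, and were grown in SATO medium with insulin, forskolin and the mitogens PDGF-AA and bFGF. Both ages then received garcinol at 5 µM together with NU-9056 at 0.2 µM for 48 h in proliferation medium (KATi below). The other libraries are 9 with the vehicle dimethyl sulfoxide (DMSO) and 9 with A-196, an inhibitor of the SUV420 histone methyltransferases, at 5 µM (SUV420i), each for 48 h, and 5 from untreated cultures. Libraries carry a letter, A to D in adult and A to E in neonatal cells, that recurs across the treatments of an age. The labels do not tie a letter to an animal or litter, so each p-value reflects spread between cultures only, and a culture with mitogens is not the tissue.

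OPCs divide and mature into the oligodendrocytes that wrap axons with myelin, and they persist in the adult brain, where they are known to divide more slowly than around birth. Lysine acetyltransferases place acetyl groups on histone tails and other proteins, a mark read by bromodomain proteins and removed by deacetylases, and histone acetylation is generally found at active promoters and enhancers. NU-9056 is known as an inhibitor of Kat5 (Tip60), the catalytic subunit of the NuA4 complex, and garcinol, a plant polyisoprenylated benzophenone, as an inhibitor of Ep300 and Kat2b (PCAF). The design allows 2 questions: which genes differ between adult and neonatal OPCs when both are under KATi, and whether that age difference is another one than with the vehicle or with the methyltransferase inhibitor.

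The 4 adult KATi libraries held 26.9 to 37.8 M counts and the 5 neonatal ones 23.5 to 32.9 M. Levels are given as CPM, the count of a gene per M counts of its library. No 2 libraries of a group agreed within sampling noise (smallest chi-square per degree of freedom 36.4), so each counted once. Mitochondrial genes took 3.08% to 4.22% of counts in adult and 1.69% to 2.99% in neonatal libraries, and 26002 to 26923 and 23788 to 25967 genes were detected, neither range overlapping. On component 1 of a principal component analysis, which held 48.2% of the variance, adult libraries lay at 8.29 (A), 49.0 (B), 48.6 (C) and 23.3 (D) and neonatal ones at -23.4 (A), 13.8 (B), -47.6 (C), -50.1 (D) and -22.0 (E). Neonatal library B thus lay among the adult libraries on that axis, between adult A and D. The part of these library differences in the results was not tested, and results are given without single libraries where those move them.

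**Figure D1:**
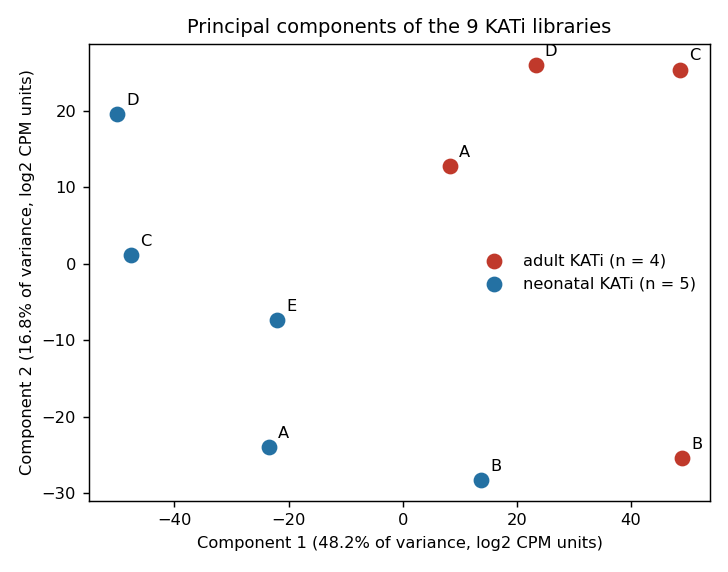
Principal components of log2 CPM in the 9 KATi libraries, component 1 (48.2% of variance) on the x axis and component 2 (16.8%) on the y axis, in log2 CPM units. Each point is a library with its letter, adult in red and neonatal in blue; neonatal B (13.8 on component 1) lies to the right of adult A (8.29).

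Of 20259 genes tested with edgeR's quasi-likelihood test, 5041 (24.9%) passed a Benjamini-Hochberg adjusted p of 0.05 and are called below. Of these, 2135 (10.5% of tested genes) were higher and 2906 (14.3%) lower in adult KATi cells. Higher genes differed by more: the median log2 fold change was 0.91 among called higher genes and -0.50 among called lower genes, against 0.03 over all tested genes. Of 1117 called genes with a change of at least 1 on the log2 scale, 934 were higher and 183 lower in adult cells. The 4 adult and 5 neonatal libraries did not overlap in 2429 genes (12%), of which 2091 (10.3% of tested genes) were also called. In bulk cultures, more cells of a type and more RNA per cell cannot be told apart. The number of called genes was 2090 when the KATi libraries were fitted alone, 3053 without adult library B (1545 higher and 1508 lower), 2501 without adult C and 2991 without neonatal C. It was 672 without adult C and D and 4706 without adult A and B, each of which leaves 2 adult libraries.

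**Figure D2:**
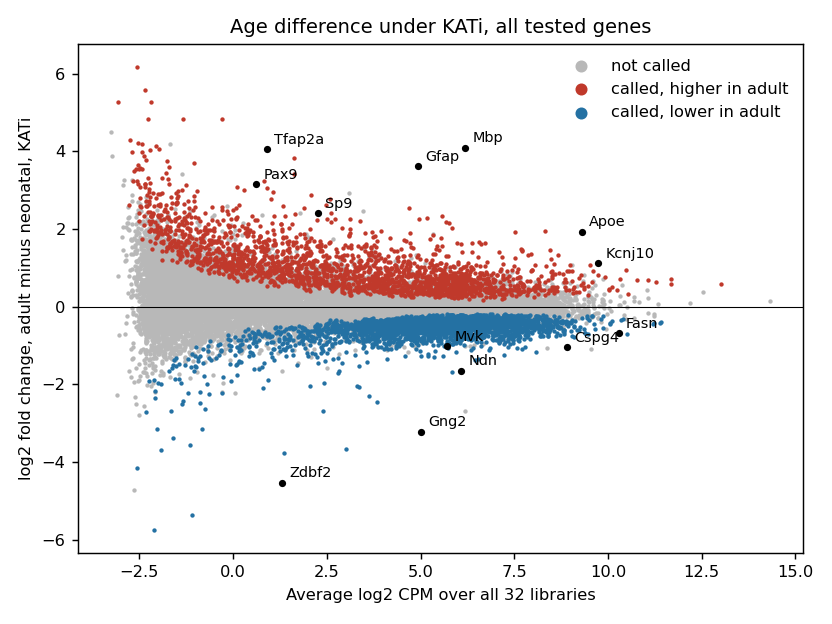
Age difference under KATi for 20259 genes. The x axis is the average log2 CPM over all 32 libraries and the y axis the log2 fold change, adult minus neonatal; red and blue points are genes called higher (2135) and lower (2906) in adult cells, and a few genes described in the text are named.

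The largest rises in adult cells among well expressed genes without overlap between the groups were Gfap, Fndc3c1, Agt, Sp9, Frem2, Sulf1, Sox1ot, Pcdhb9, Selenop and Mr1. Gfap, the intermediate filament protein of astrocytes (chr11:102887336-102900912), stood at 6.73, 13, 58.2 and 59.1 CPM in adult libraries A to D and at 0.851, 2.4, 2.54, 5.54 and 2.12 CPM in neonatal libraries A to E. Adult C and D were about an order of magnitude above the highest neonatal library, while adult A lay just above it, and the log2 fold change was 3.61 ± 0.82 (SE; adjusted p = 0.00287). Values in brackets below are log2 fold changes, adult minus neonatal, ± SE with adjusted p from the same test, and levels joined by "against" give adult first and neonatal second, single libraries in letter order or the mean ± SD (n = 4 and n = 5). Selenop, a secreted selenium carrier protein (chr15:3268547-3280508), was at 52.7, 144, 101 and 68.1 CPM in adult libraries and 14.3, 31.3, 21.5, 25.8 and 19.4 CPM in neonatal libraries (2.02 ± 0.28, adjusted p = 0.000104). Frem2, an extracellular matrix protein of basement membranes (chr3:53513938-53657355), was at 35, 39, 90.1 and 45.9 CPM against 7.66, 14.2, 10.8, 9.71 and 10.8 CPM (2.27 ± 0.31, adjusted p = 7.31e-05). For both genes every adult library was clearly above every neonatal one, and library A held the lowest level at each age. Sulf1, an extracellular enzyme that removes sulphate from heparan sulphate chains, was at 59.7, 32.6, 75 and 81.6 CPM against 5.28, 31.6, 9.47, 6.97 and 10.6 CPM (2.25 ± 0.46, adjusted p = 0.00158), and here adult B and neonatal B almost met. Mr1, which presents vitamin metabolites to innate-like T cells, rose by 2.0 ± 0.34 on the log2 scale. Agt, the precursor of angiotensin made by astrocytes in the brain, rose by 2.42 ± 0.38.

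Sp9, a zinc finger transcription factor known from forebrain interneuron development, was at 7.84, 5.81, 11.5 and 8.88 CPM in adult libraries and 1.4, 3.47, 0.857, 0.791 and 1.35 CPM in neonatal libraries (2.40 ± 0.43, adjusted p = 0.000685). Fndc3c1, an X-linked gene whose function is little known (chrX:106420041-106485401), was at 4.71, 16.6, 17.6 and 5.83 CPM against 0.383, 0.389, 2.11, 2.31 and 2.89 CPM (2.77 ± 0.71, adjusted p = 0.00679). Sox1ot, the long transcript that overlaps Sox1, rose by 2.25 ± 0.38, and Pcdhb9, a clustered protocadherin, by 2.25 ± 0.45. No strand setting of the counting is given in the sources used here. Sox1ot is annotated as overlapping in the sense direction, so strand would not tell its reads from those of Sox1 in any case. Members of the protocadherin cluster are close copies. Of these 10 genes, the calls of Gfap, Fndc3c1 and Sulf1 were lost without adult libraries C and D.

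Among well expressed genes without overlap between the groups, the largest falls were Six3os1, Gng2, Tgfb1i1, Jph4, Hopx, Six3, Ndn, Efnb3, Pla2g3 and Nptx2. Absence of overlap was a condition of the choice, for these falls as for the rises above. Gng2, a gamma subunit of heterotrimeric G proteins (chr14:19872559-19977627), was at 2.76, 8.29, 8.53 and 4.94 CPM in adult libraries A to D and 79.4, 29.1, 64.7, 45.4 and 62.1 CPM in neonatal libraries A to E. All adult levels lay far below the lowest neonatal level, that of library B, and the log2 fold change was -3.22 ± 0.43 (adjusted p = 6.61e-05). Jph4, a junctophilin that ties the endoplasmic reticulum to the plasma membrane (chr14:55106826-55116935), was at 4.57, 3.89, 3.31 and 4.42 CPM against 14.9, 11.1, 23.1, 15.8 and 18.3 CPM, with a change of -2.07 ± 0.22 (adjusted p = 4.1e-06). Tgfb1i1 (Hic-5), a focal adhesion adaptor, was at 2.72, 1.95, 0.556 and 1.04 CPM against 11.5, 6.13, 11.6, 13.5 and 7.48 CPM (-2.70 ± 0.43, adjusted p = 0.000339). Adult library C held the least Tgfb1i1 and neonatal B the least of its age. Hopx, a homeodomain-only protein that marks some neural stem cells, was at 1.64 ± 0.509 against 6.7 ± 1.83 CPM (-2.05 ± 0.34). Efnb3, a ligand of Eph receptors, was at 6.18 ± 2.43 and 16.5 ± 3.35 CPM, and Pla2g3, a secreted phospholipase, at 2.92 ± 0.732 and 7.56 ± 1.57 CPM. Nptx2, a neuronal pentraxin, was the weakest of the 10 (-1.36 ± 0.48, adjusted p = 0.0368). Its call was lost without any of adult A, C or D, or neonatal A, C or E.

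Six3, a forebrain homeobox gene, was at 2.66, 0.565, 3.52 and 2.19 CPM in adult libraries and 12.3, 7.46, 6.64, 8.61 and 7.98 CPM in neonatal libraries (-1.98 ± 0.37, adjusted p = 0.000979). The antisense transcript Six3os1 (chr17:85600651-85618398) overlaps Six3 (chr17:85613608-85629302) and was at 0.505, 0.251, 2.67 and 1.11 CPM against 19.6, 13.4, 11.7, 13.4 and 14 CPM (-3.67 ± 0.67). Reads from the shared stretch cannot be assigned to either gene without a strand setting. Of the 10 largest falls, the call of Nptx2 was the only one lost without adult C and D.

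**Figure D3:**
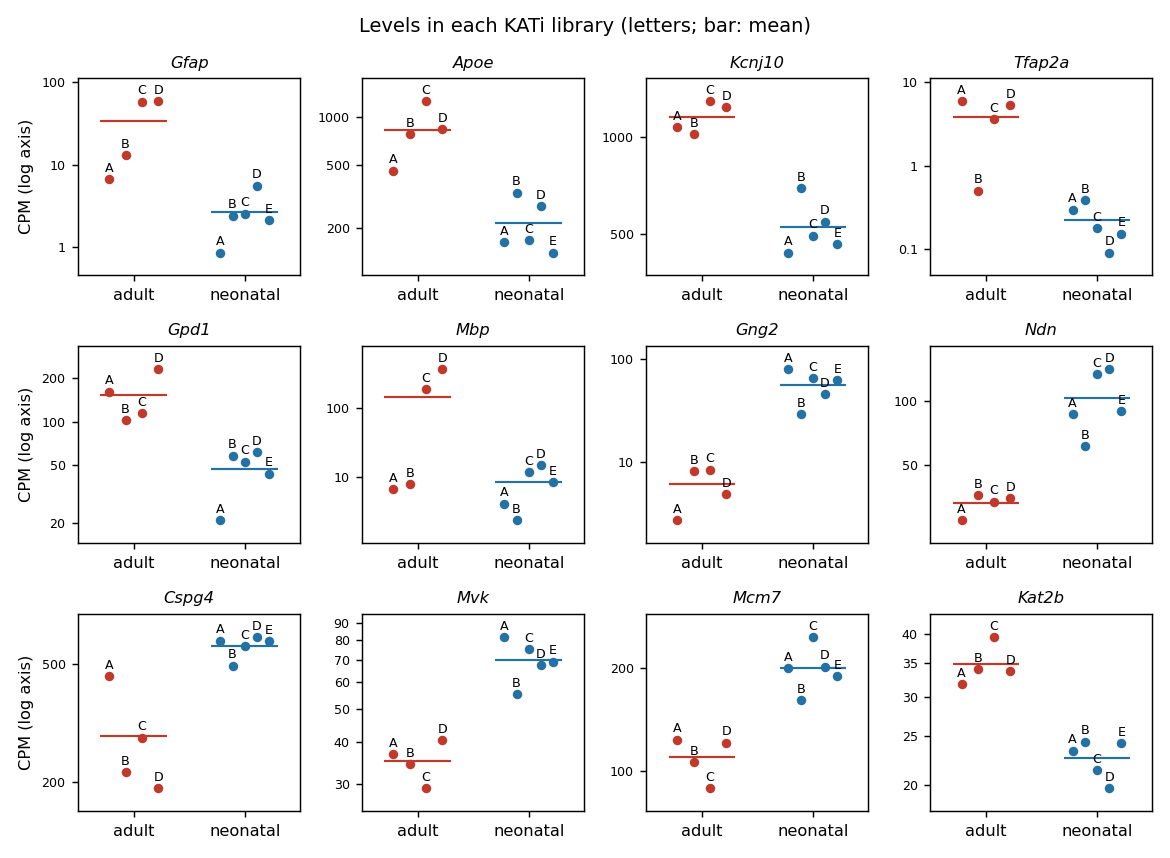
CPM on a log axis of 12 genes in each KATi library, adult in red (n = 4) and neonatal in blue (n = 5), with letters for libraries and a bar for the group mean. Mbp overlaps between the ages, with adult A (6.66 CPM) and B (7.88 CPM) inside the neonatal range. In the other 11 genes every adult library lies on one side of all neonatal ones. The 12 genes were picked for display, and Gfap, Gng2 and Ndn were named by a rule that asks for no overlap. Of 20259 tested genes 2429 (12%) had no overlap.

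The lineage label was checked against 24 OPC markers. Their summed level was 10897 to 13343 CPM in adult and 11351 to 12242 CPM in neonatal KATi libraries, so the ranges overlapped. Of the 24, 2 were called higher in adult cells and 5 were called lower, with a median log2 fold change of -0.08. Over all tested genes 10.5% were called higher and 14.3% lower, and the counts of each list below are to be read beside these shares. Cspg4, the NG2 proteoglycan of OPCs (chr9:56865033-56899870), was at 454, 216, 282 and 190.5 CPM in adult libraries and 599.6, 494, 575, 618 and 599 CPM in neonatal libraries. All adult libraries lay below all neonatal ones, adult A nearest to them, and the change was -1.04 ± 0.28 (adjusted p = 0.0089). Nkx2-2, a transcription factor of oligodendrocyte specification, was at 56.2, 46.9, 36.4 and 43.4 CPM against 95, 75.4, 102, 127 and 86.8 CPM (-1.11 ± 0.21, adjusted p = 0.000928). Olig2, which defines the lineage, was at 1146, 1068, 835 and 980.1 CPM against 1338, 1194, 1332, 1350.3 and 1170.0 CPM (-0.36 ± 0.12, adjusted p = 0.0296). The receptor for PDGF-AA, Pdgfra, did not pass the test: it stood at 1070.5, 242, 730.0 and 666 CPM and 820.3, 455, 1211, 1162 and 1253 CPM (-0.57 ± 0.38, adjusted p = 0.286), library B being the lowest of each age. Ptprz1, a receptor phosphatase of OPCs and astrocytes, and Ednrb, an endothelin receptor that astrocytes also carry, were the higher members (0.71 ± 0.22 and 0.92 ± 0.26). The lower count was 2 without adult B, 3 without adult C and 0 without adult C and D, and the higher count 1 without adult B, neonatal C or neonatal D and 0 without adult C.

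Gpr17, a receptor of cells already committed to differentiation, was at 458, 27.8, 237 and 233 CPM in adult libraries and 156, 31.6, 552, 1318 and 458 CPM in neonatal libraries. Library B was lowest at both ages, the groups overlapped, and the difference of -1.10 ± 1.01 did not pass the test (adjusted p = 0.448). Of 15 tested genes of committed precursors only Tnfrsf21, the death receptor 6 of oligodendrocytes, was called (259.9 ± 34.1 against 176 ± 18.8 CPM, 0.54 ± 0.11, adjusted p = 0.00165), while the list's median was -0.29. Without adult A 2 of them were called lower and without neonatal B 1.

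Genes of myelin and mature oligodendrocytes were higher in part of the adult libraries. Of 23 tested, 7 were called higher and 0 lower, with a median log2 fold change of 0.56. Mbp, a major myelin protein, was at 6.66, 7.88, 193 and 376 CPM in adult libraries and 4.04, 2.3, 11.7, 14.9 and 8.28 CPM in neonatal libraries (4.09 ± 1.11, adjusted p = 0.00918). Adult C and D were high, and adult A and B overlapped the neonatal libraries. Without adult C and D the Mbp difference turned to -0.15 (adjusted p = 0.915), and none of the 7 genes kept its call. Mog, Mobp, Ermn, Aspa and Klk6 stood at mean levels below 2 CPM at both ages, and Klk6 at 0 in 2 adult and 3 neonatal libraries. The count was 3 without adult C, 4 without adult D and 4 without neonatal A. The summed level of all 24 genes listed was 293 to 1335 CPM in adult and 367 to 984 CPM in neonatal libraries.

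Astrocyte markers were higher in adult KATi cells. Of 22 tested, 15 were called higher and 0 lower, 21 of 22 log2 fold changes were positive, and the median was 0.84 against 0.03 over all genes. Their summed level was 6493 to 10013 CPM in adult and 3976 to 5193 CPM in neonatal libraries, without overlap. Apoe, the main lipid carrier of the brain (chr7:19696109-19699188), was at 460.0, 777, 1256 and 837 CPM in adult libraries A to D and 163, 333, 168, 274 and 140.1 CPM in neonatal libraries A to E (1.93 ± 0.34, adjusted p = 0.000577). Slc1a2, the glutamate transporter GLT-1, was at 181, 275, 429.5 and 192 CPM against 82, 134, 79.2, 74.2 and 103 CPM (1.49 ± 0.24, adjusted p = 0.000428). Agt was at 4.37, 10.3, 14.1 and 10.4 CPM against 0.809, 2.43, 1.89, 2.28 and 1.5 CPM (2.42 ± 0.38, adjusted p = 0.000339). In these 3 genes adult A was the lowest adult library and still lay above every neonatal one. Aqp4, the water channel of astrocyte endfeet, was at 10.7, 73.5, 115 and 50.9 CPM against 11.1, 17.3, 13.9, 13.3 and 12.7 CPM, so adult A lay below every neonatal library and the other adult libraries far above (2.17 ± 0.52, adjusted p = 0.00458). Aldh1l1, a folate enzyme widely used as an astrocyte marker, was at 245, 471, 621 and 620.0 CPM against 154, 138, 245, 356 and 233 CPM (1.09 ± 0.36, adjusted p = 0.0262), and adult A lay below neonatal D. OPCs express several of these genes as well, Apoe, Slc1a2 and Slc1a3 among them. The part of astrocytes in these differences was not tested. The count stayed between 11 and 15 without any single library and was 4 without adult C and D.

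Markers of other cell types of the cortex were low. Of 18 microglia genes 8 were at 0 in every KATi library, among them C1qa, C1qb, C1qc, Tyrobp, Trem2 and Itgam, and the summed level was 20.1 to 24.0 CPM in adult and 16.5 to 20.3 CPM in neonatal libraries. Of the 6 tested, 1 was called higher and 0 lower, and none was called higher without adult C. Endothelial genes summed to 9.2 to 28.3 CPM in adult and 11.5 to 20.5 CPM in neonatal libraries, with Slco1a4 called higher (2.28 ± 0.65) and Egfl7 lower (-0.86 ± 0.29). Pericyte and fibroblast genes summed to 5.35 to 10.5 CPM and 9.02 to 13.9 CPM, with Rgs5 called higher (1.69 ± 0.62). The calls of Egfl7 and Rgs5 were each lost without adult B, adult C, neonatal C, neonatal D or neonatal E and without adult A and B, that of Rgs5 also without adult D or neonatal A. Those of Slco1a4, Egfl7 and Rgs5 were lost without adult C and D.

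Among 15 tested neuron markers 2 were called higher and 4 lower. The neurofilament genes Nefl and Nefm were lower, at 2.14 ± 0.943 against 5.1 ± 1.26 CPM (-1.28 ± 0.26, adjusted p = 0.00148) and 8.45 ± 2.97 against 15.7 ± 3.55 CPM (-0.92 ± 0.21). Map2, a microtubule protein that OPCs in culture also make, was higher (1252 ± 264 against 719.8 ± 246 CPM, 0.78 ± 0.19), as was Gad1, the GABA-making enzyme (1.69 ± 0.48). The summed level was 1058 to 1907 CPM in adult and 758 to 1368 CPM in neonatal libraries. The lower count was 2 without adult B or without adult D and 0 without adult C and D, and the higher count 1 without adult B or C. Of 17 neural stem and radial glia genes 4 were higher (Sox1, Pax6, Egfr and Notch1) and 2 lower: Hopx and Prom1, the surface antigen CD133 (-1.64 ± 0.40, adjusted p = 0.00516). None of the higher ones was called without adult C, and 2 were without neonatal C or D. Reads of Sox1 may include some of Sox1ot, the overlapping transcript described above.

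**Figure D4:**
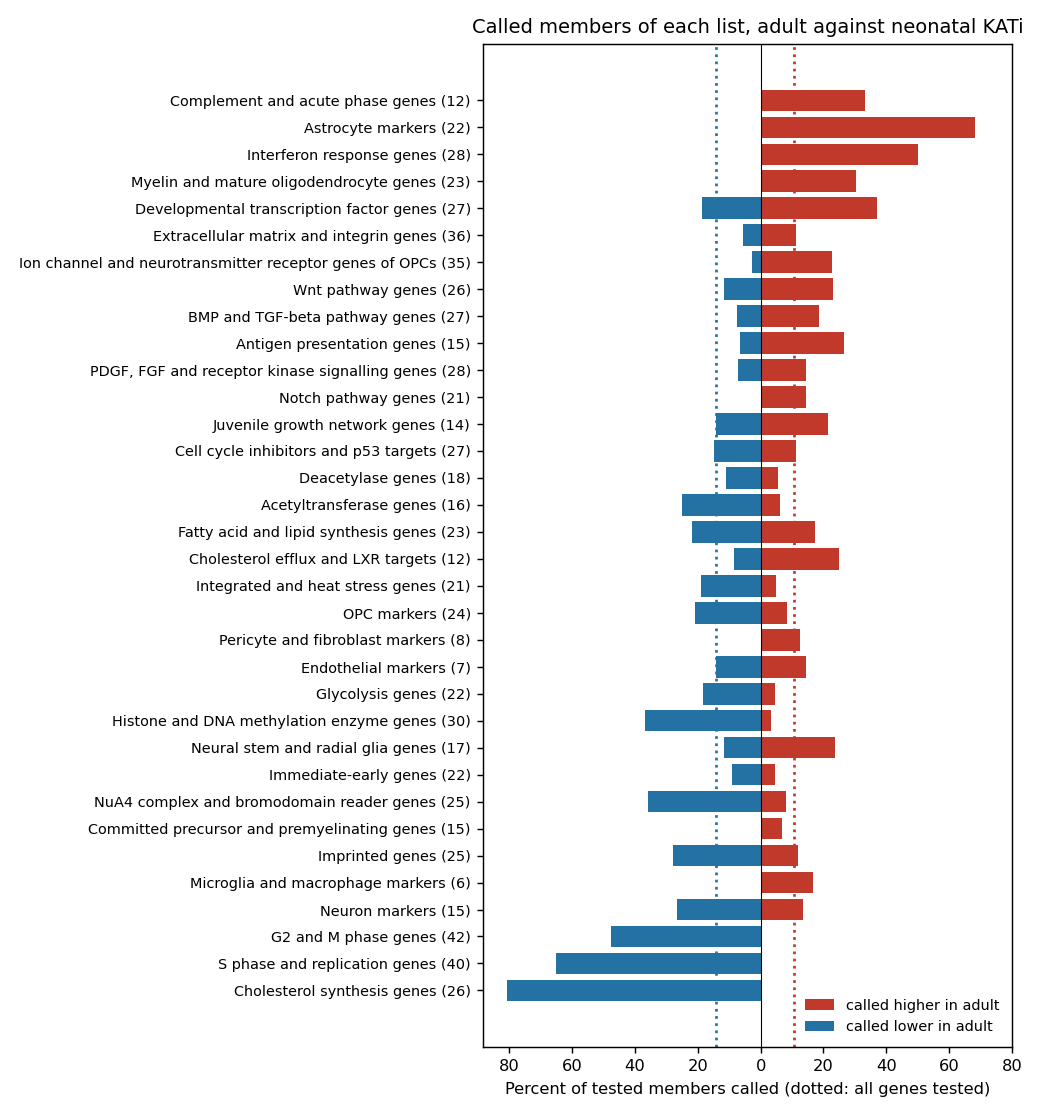
Share of tested members called higher (red, to the right) or lower (blue, to the left) in adult KATi cells, in percent, for 34 lists with the number tested in brackets and ordered by median log2 fold change. Dotted lines give the share over all genes tested (10.5% higher, 14.3% lower); cholesterol synthesis (21 of 26 lower) and astrocyte markers (15 of 22 higher) lie farthest from them.

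Replication genes were lower in adult cells under KATi. Of 40 tested S phase genes 26 were called lower and 0 higher, and the median log2 fold change was -0.67. In 29 of the 40 the groups did not overlap, beside 12% of all tested genes. Mcm7, a subunit of the helicase that unwinds DNA ahead of the fork (chr5:138164583-138172422), was at 124, 106, 89.4 and 121 CPM in adult libraries and 199.8, 161, 246, 201 and 189 CPM in neonatal libraries (-0.88 ± 0.18, adjusted p = 0.00131). Gins1, which joins that helicase, was at 13.8 ± 2.72 against 26.1 ± 3.2 CPM (-0.94 ± 0.23, adjusted p = 0.00424). The clamp loader genes Rfc2 and Rfc5 were lower by less (-0.57 ± 0.13 and -0.75 ± 0.17), and the clamp itself, Pcna, fell from 121 ± 20.8 CPM in neonatal to 78.4 ± 6.02 CPM in adult cells. Adult library A stood nearest to the neonatal levels for Mcm7, and in Rfc2 adult D lay just above neonatal B. The count was 13 without adult B, 10 without adult C, 16 without neonatal A, 11 without neonatal C and 2 without adult C and D.

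Of 42 tested genes of G2 and mitosis 20 were called lower and 0 higher, with a median of -0.50. Ube2c, the ubiquitin-conjugating enzyme of the anaphase-promoting complex (chr2:164769898-164778822), was at 134, 87.4, 96.1 and 118 CPM in adult libraries and 229, 144, 233, 213 and 186 CPM in neonatal libraries (-0.91 ± 0.19, adjusted p = 0.00172). Tacc3, a spindle protein, was at 144, 103, 99.9 and 120.2 CPM against 216, 154, 242, 226 and 184 CPM (-0.84 ± 0.17, adjusted p = 0.00123). In both genes adult A came close to neonatal B, the lowest of its age, without crossing it. Cdca8, of the chromosomal passenger complex, and Cdca3, a cell division cycle associated gene, were lower as well (-0.89 ± 0.19 and -0.85 ± 0.18). Cdk1, the kinase that drives entry into mitosis, was at 158 ± 20.1 against 282 ± 54.7 CPM (-0.86 ± 0.19, adjusted p = 0.00241). The proliferation marker Mki67 did not pass the test. It was at 603, 952, 749.9 and 669 CPM against 1417, 1188, 521, 522 and 663 CPM (-0.24 ± 0.41, adjusted p = 0.701), with neonatal A and B above all adult libraries, neonatal C and D below all of them and neonatal E among them. Without neonatal A its difference turned to 0.046 (adjusted p = 0.949). The count of G2 and mitosis genes stayed between 14 and 22 without any single library and was 0 without adult C and D.

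Among 27 cell cycle inhibitors and p53 targets 3 were higher and 4 lower, close to the shares over all tested genes (10.5% and 14.3%). Trp53 itself was at 84.8, 70.1, 68.1 and 80.8 CPM in adult libraries and 116, 93.8, 132, 126 and 106 CPM in neonatal libraries (-0.62 ± 0.13, adjusted p = 0.00181). Tob1, an antiproliferative protein, was at 66.1, 74.4, 74.9 and 71.8 CPM against 47.5, 48.5, 51.2, 45.2 and 59.8 CPM (0.48 ± 0.11, adjusted p = 0.00325). Neither gene overlapped between the ages, and both calls were lost without adult C and D. Cdkn1a, the inhibitor p21 that Trp53 activates, stood at 398 ± 82.4 and 388 ± 58.8 CPM (0.02 ± 0.22, adjusted p = 0.963). The higher count was 1 without any of adult C, neonatal C or neonatal D.

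Cholesterol synthesis was the list with the highest share of lower genes: 21 of 26 tested were called lower and 0 higher. The median log2 fold change was -0.80, and 17 of the 26 did not overlap, beside 12% of all tested genes. Early in the pathway, Mvk, which phosphorylates mevalonate (chr5:114444269-114460591), was at 36.7, 34.3, 29.1 and 40.4 CPM in adult libraries and 81.8, 55.3, 75.3, 67.5 and 69 CPM in neonatal libraries (-1.02 ± 0.14, adjusted p = 6.61e-05). Fdft1, which commits the pathway to sterols, was at 107 ± 19 against 217 ± 37.3 CPM (-1.04 ± 0.16, adjusted p = 0.000248). Late in the pathway, Tm7sf2, a sterol reductase, was at 19.9, 17, 18.3 and 24.4 CPM against 47.7, 28.8, 42.5, 37.6 and 35.8 CPM (-0.98 ± 0.13, adjusted p = 7.31e-05), and Dhcr7, the final reductase, at 125 ± 18.7 against 256 ± 45.8 CPM (-1.05 ± 0.18). The highest adult library for Mvk and Tm7sf2 was D, still below neonatal B, the lowest of its age. Fdps was lower too (-1.31 ± 0.16, adjusted p = 2.41e-05), but it has near-identical pseudogene copies, so its counts are uncertain. Hmgcs1, an early enzyme of the pathway, did not pass the test (-0.30 ± 0.18, adjusted p = 0.231). The count stayed between 15 and 21 without any single library and was 12 without adult C and D. A single member was called higher without adult D and without neonatal A.

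Since many genes of these 3 lists were lower together, the 250 bases before their RefSeq start sites (GRCm38.p6) were searched on both strands for 3 kinds of motif. CCAAT, the box bound by NF-Y, reads ATTGG where it lies on the other strand. It was found in 16 of 18 cholesterol promoters (88.9%), 27 of 35 G2 and mitosis promoters (77.1%) and 17 of 30 S phase promoters (56.7%). The share was 35.8% of the 12408 tested genes with a promoter sequence. It was 39.24% of those called lower and 39.45% of those called higher, so the box did not separate the 2 directions. The E2F motifs TTTCCCGC and TTTGGCGC were in 6 of 30 S phase promoters (20%) against 2.37% of all. The sterol regulatory element searched, TCACNCCAC, was in 1 of 18 cholesterol promoters (5.56%), that of Hmgcs1, against 0.983% of all. The 3 promoters below show such matches in capitals: CCAAT or ATTGG in Mvk (5 matches) and Ube2c (6 matches, a pair of them overlapping), and TTTGGCGC in Mcm6 (2 matches), a helicase subunit at 206 ± 53.8 against 317 ± 39.6 CPM (-0.64 ± 0.24, adjusted p = 0.048) picked after its values were seen. Each runs 5′ to 3′ on the strand of the gene: chr5:114444019-114444268 plus strand, chr2:164769679-164769928 plus strand and chr1:128359706-128359955 minus strand.
Mvk: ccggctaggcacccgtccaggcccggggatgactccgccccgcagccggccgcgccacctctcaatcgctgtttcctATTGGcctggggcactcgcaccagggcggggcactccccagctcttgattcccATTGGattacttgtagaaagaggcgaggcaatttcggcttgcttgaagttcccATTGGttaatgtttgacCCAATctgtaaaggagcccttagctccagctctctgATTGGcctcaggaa
Ube2c: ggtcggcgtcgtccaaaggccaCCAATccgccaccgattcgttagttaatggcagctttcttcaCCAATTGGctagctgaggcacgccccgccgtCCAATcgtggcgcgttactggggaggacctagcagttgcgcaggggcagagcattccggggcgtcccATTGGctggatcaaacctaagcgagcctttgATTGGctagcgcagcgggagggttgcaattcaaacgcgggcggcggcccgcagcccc
Mcm6: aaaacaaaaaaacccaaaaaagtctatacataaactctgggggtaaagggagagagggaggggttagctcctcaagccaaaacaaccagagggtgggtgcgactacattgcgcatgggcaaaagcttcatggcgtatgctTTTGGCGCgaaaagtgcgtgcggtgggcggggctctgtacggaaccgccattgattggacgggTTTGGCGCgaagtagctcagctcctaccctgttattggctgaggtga
The promoters shown held the most matches of their lists for the motif marked, Ube2c level with Top2a, so they are not typical of those lists. Mvk and Ube2c hold their matches spread over the window, while both matches of Mcm6 lie in the part nearer the start, at 110 and 47 bases before it. A match describes these letters and does not show binding, and the motif shares were set beside each other with no test.

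In fatty acid and lipid synthesis 4 of 23 genes were higher and 5 lower, with a median of 0.02, beside 10.5% and 14.3% of all tested genes. The enzymes that build fatty acids from citrate were lower: Acly, which makes cytosolic acetyl-CoA, was at 366, 347, 328 and 364 CPM against 540.2, 447, 601, 452 and 557 CPM (-0.59 ± 0.10, adjusted p = 0.000434). Fasn, the fatty acid synthase, was at 904, 756, 819 and 1000.4 CPM against 1627, 1111, 1477, 1102 and 1535 CPM (-0.69 ± 0.11, adjusted p = 0.000434), and Acaca, the carboxylase between them, was lower too (-0.44 ± 0.09). The adult libraries of Acly and Fasn lay below every neonatal one, of which B and D were the lowest. Gpd1, which makes glycerol 3-phosphate for lipids and is known as an oligodendrocyte marker (chr15:99717515-99725005), went the other way, with 162, 103, 115 and 232 CPM in adult libraries and 20.9, 58.5, 53.2, 61.7 and 43.9 CPM in neonatal libraries (1.66 ± 0.31, adjusted p = 0.000942). Of 12 genes of cholesterol efflux, targets of the sterol sensor LXR, 3 were higher and 1 lower. Abca1, the exporter that loads lipid onto Apoe, was at 144, 326, 434 and 223 CPM against 33.8, 185, 43.9, 37 and 67.2 CPM (1.92 ± 0.41, adjusted p = 0.00211), and neonatal B lay above adult A. Abca1 lost its call without adult C and D. The lower count of lipid synthesis was 3 without neonatal C, and the lower LXR gene, Abcg4, an exporter of sterols, was called in no set that left out adult A, B, C or D or neonatal A, C or D.

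Among 22 glycolysis genes 1 was higher and 4 lower, beside 10.5% and 14.3% of all tested genes. Hk2, a hexokinase, was at 12.2, 13.2, 7.86 and 10.4 CPM against 20.8, 17, 27.1, 22.6 and 25.4 CPM, without overlap (-1.07 ± 0.19, adjusted p = 0.000709). Pdk1, which slows entry of pyruvate into mitochondria, was at 16.2 ± 4.89 against 9.73 ± 2.47 CPM (0.71 ± 0.20, adjusted p = 0.0121) and lost its call without adult B or C and without adult C and D. The lower count was 1 without adult A, adult C or neonatal C and 2 without adult B or neonatal A, and the higher count was 2 without adult A or neonatal D and 0 without adult C.

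Interferon response genes were higher in adult cells: 14 of 28 were called higher and 0 lower, 27 of 28 log2 fold changes were positive, and the median was 0.75. Gbp7, a guanylate-binding protein induced by interferon (chr3:142530342-142550149), was at 6.96, 13.2, 13.5 and 12.8 CPM in adult libraries and 3.96, 5.74, 2.89, 2.77 and 4.35 CPM in neonatal libraries (1.53 ± 0.25, adjusted p = 0.000434). Ifi27 was at 12.1, 16.4, 21.8 and 33.2 CPM against 7.58, 9.17, 5.25, 6.61 and 5.43 CPM (1.58 ± 0.26, adjusted p = 0.000439). Every adult library lay above every neonatal one in both genes, with adult A lowest. Gbp2 and Parp14, further interferon-induced genes, were at 3.26 ± 1.21 against 0.807 ± 0.427 CPM (1.96 ± 0.39) and 2.63 ± 1.02 against 0.861 ± 0.423 CPM (1.58 ± 0.33). Several called members, Ifit1, Trim30a and Oasl2 among them, had mean levels under 1 CPM at both ages. The count stayed between 10 and 14 without any single library and was 3 without adult C and D.

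Of 15 antigen presentation genes 4 were higher and 1 lower. B2m, the light chain of MHC class I, was at 50.8, 85.6, 75 and 71.1 CPM against 47.8, 54, 47.5, 51.7 and 41.7 CPM (0.52 ± 0.14, adjusted p = 0.0103), and Tap2, a peptide transporter, at 6.65 ± 1.31 against 4.4 ± 0.825 CPM (0.57 ± 0.16). Adult A was within the neonatal range for B2m. Of 12 complement and acute phase genes 4 were higher and 0 lower, with a median of 0.95. Cp, the copper enzyme ceruloplasmin, was at 48.5, 121, 103 and 79.8 CPM against 8.09, 49.3, 7.25, 10.4 and 11.7 CPM (2.33 ± 0.48, adjusted p = 0.00156), where neonatal B lay just above adult A and the other neonatal libraries were far below. C4b, a complement component made by glia, was at 1.14, 6.16, 7.47 and 5.68 CPM against 0.341, 1.2, 0.5, 0.761 and 0.578 CPM (2.87 ± 0.60, adjusted p = 0.00172), and again adult A and neonatal B overlapped. The higher count of antigen presentation was 1 and the call of Tap2 was lost without adult C, and the lower member, H2-D1, a heavy chain of MHC class I, was not called without adult B, adult C or neonatal C. The complement count was 7 without neonatal B and 2 without adult C and D, where the calls of B2m and Tap2 were lost. The microglia markers C1qa, C1qb, C1qc, Tyrobp, Trem2 and Itgam were at 0 in every KATi library of both ages.

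The genes of the enzymes the compounds are aimed at were expressed at both ages. Kat5, the target of NU-9056, was at 49.4, 34.6, 44.5 and 44.2 CPM in adult libraries and 56.5, 48.7, 59.5, 66.6 and 50.3 CPM in neonatal libraries (-0.41 ± 0.11, adjusted p = 0.00918), with adult A inside the neonatal range. Ep300 was at 156, 180.5, 188 and 142 CPM against 137, 169, 133, 102 and 169.7 CPM (0.21 ± 0.13, adjusted p = 0.264) and its paralogue Crebbp at 131 ± 13 against 117 ± 18.5 CPM (0.13 ± 0.11, adjusted p = 0.404), neither passing the test. Kat2b (chr17:53566861-53672720) was at 31.9, 34.1, 39.6 and 33.8 CPM against 23.4, 24.4, 21.4, 19.7 and 24.2 CPM (0.59 ± 0.11, adjusted p = 0.000958), and its paralogue Kat2a at 97.5, 79.1, 67.7 and 91.9 CPM against 110.1, 108, 139, 138 and 120.1 CPM (-0.57 ± 0.12, adjusted p = 0.00223). These paralogues, which serve in the same kinds of coactivator complex, differed in opposite directions, each without overlap between the ages. Kat7, which acetylates histones at replication origins, was at 142, 119, 118 and 129.8 CPM against 164, 161, 189, 169 and 165 CPM (-0.44 ± 0.07, adjusted p = 0.000369). Over 16 acetyltransferase genes 1 was higher and 4 lower, the fourth being Nat10, an acetyltransferase of RNA, and the median was 0.07. The higher count was 2 without adult A, 4 without adult D and 3 without neonatal B. The call of Kat5 was lost without adult B, and without adult C and D, where 1 acetyltransferase gene was called lower. Levels of RNA do not show the activity of an inhibited enzyme.

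Among 25 genes of the NuA4 complex and of bromodomain readers 2 were higher and 9 lower, with a median of -0.20. Ruvbl2, an ATPase of NuA4 and other remodelling complexes, was at 88.8, 63.4, 65.7 and 90.1 CPM against 140.1, 103, 148, 150.4 and 118 CPM (-0.80 ± 0.14, adjusted p = 0.000577), and its partner Ruvbl1 was lower too (-0.55 ± 0.13). Brd3, a reader that binds acetylated histones, was lower by a small amount, at 162 ± 9.19 against 189 ± 7.18 CPM (-0.25 ± 0.08). It lost its call without adult B, C or D or neonatal A or C. The lower count was 2 without adult B, 4 without adult C, adult D or neonatal A, 3 without neonatal C and 1 without adult C and D. The higher count, Morf4l1 and Jade2, was 1 without adult B, adult D or any of neonatal A, C, D or E and 0 without adult C. Of 18 deacetylase genes Hdac4, a class IIa enzyme, was higher (67.5 ± 8.25 against 49.4 ± 6.15 CPM, 0.42 ± 0.11) and Hdac3 (-0.41 ± 0.10) and Hdac6 lower, none of them called without adult C and D. The higher count was 2 without adult A, and the lower count 4 without adult A or neonatal B and 1 without adult B, C or D or neonatal C or D.

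Of 30 genes of histone and DNA methylation 1 was higher and 11 lower, with a median of -0.14. Prmt1, the main arginine methyltransferase, was at 198, 158, 133 and 171 CPM against 299, 235, 339, 327 and 259 CPM (-0.84 ± 0.15, adjusted p = 0.000579). Prmt5, which makes symmetric arginine methylation and is known to act in OPC proliferation, was at 145, 109, 102 and 127 CPM against 185, 150.1, 224, 199.7 and 171 CPM (-0.65 ± 0.13, adjusted p = 0.00113). Suv39h1 and Ehmt2, methyltransferases of histone H3 lysine 9, were at 63.7 ± 7.21 against 97.7 ± 13.8 CPM (-0.64 ± 0.12) and 193 ± 13 against 239.7 ± 7.6 CPM (-0.34 ± 0.08). No adult library of these 4 genes reached a neonatal one. Dnmt1 and Uhrf1, which copy DNA methylation at replication, belong to the same list and were lower (-0.67 ± 0.21 and -0.80 ± 0.26), and Uhrf1 also counts among the S phase genes. The lower count was 5 without adult B, adult C or neonatal C, 7 without neonatal A and 3 without adult C and D. The higher gene, the demethylase Kdm5b, was not called without adult C, neonatal C or neonatal D, and the higher count was 2 without adult D or neonatal A, 4 without neonatal B and 3 without neonatal E.

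Of 21 Notch pathway genes the receptors Notch1, Notch2 and Notch3 were called higher and 0 lower, with a median log2 fold change of 0.15. That count is close to the share over all tested genes, of which 10.5% were called higher. Notch2 was at 86, 139, 147 and 109.9 CPM against 34.2, 92.8, 59.3, 47.2 and 70.7 CPM (0.97 ± 0.22, adjusted p = 0.00317), with adult A below neonatal B. Hes5, a target of Notch signalling, was at 22.6, 3.14, 29.6 and 17.8 CPM against 19.7, 2.01, 11.1, 18.3 and 13.6 CPM and did not pass the test (0.46 ± 0.70, adjusted p = 0.662), library B being lowest at both ages. Notch3 (0.68 ± 0.21) lost its call without adult B or C, the count was 1 without adult C, and it was 0 without adult C and D.

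Among 28 genes of PDGF, FGF and receptor kinase signalling 4 were higher and 2 lower, beside 10.5% and 14.3% of all tested genes. Erbb4, a neuregulin receptor, was at 68.4, 69.2, 106 and 46.4 CPM against 28.8, 43, 20.4, 21.2 and 45.7 CPM (1.16 ± 0.27, adjusted p = 0.00393), and Mycn, a growth transcription factor, at 3.83, 2.7, 4.26 and 4.27 CPM against 7.45, 6.55, 8.36, 4.87 and 7.82 CPM (-0.93 ± 0.24, adjusted p = 0.00667). Neither gene overlapped between the ages, adult D and neonatal E coming closest for Erbb4. Mycn lost its call without adult A and B, and both genes lost theirs without adult C and D. Of 27 BMP and TGF-beta pathway genes 5 were higher and 2 lower. Bmpr1b, a BMP receptor (chr3:141837136-142169425), was at 16.5, 36.5, 54.4 and 30.1 CPM against 8.73, 13.9, 8.32, 8.8 and 12.1 CPM (1.70 ± 0.31, adjusted p = 0.000811). Id4, a BMP target that holds back differentiation, was higher (1.32 ± 0.48), and Tgfb1i1, described above, had the largest fall of the list. Of 26 Wnt pathway genes 6 were higher and 3 lower. Axin1, a scaffold of the beta-catenin destruction complex, was at 54.5, 50, 53.1 and 56 CPM against 68.5, 70.2, 76.9, 75.9 and 70.2 CPM (-0.46 ± 0.08, adjusted p = 0.000439), whereas Axin2, a target gene of the pathway, was at 41.7, 70.6, 58.5 and 57.9 CPM against 35.9, 42.8, 40.1, 34.4 and 40.2 CPM (0.54 ± 0.13, adjusted p = 0.00552). Adult A lay below neonatal B in Axin2, and no adult library reached a neonatal one in Axin1. Receptors differed both ways, with Fzd1 lower (-0.78 ± 0.16) and Fzd3 higher (1.07 ± 0.28). The higher counts of these 3 lists were 1, 2 and 2 without adult C, and 0, 1 and 0 without adult C and D. The receptor kinase count was also 1 without adult B or neonatal C and 2 without neonatal D, the BMP count 3 without adult D, neonatal A or neonatal C and 2 without neonatal D, and the Wnt count 3 without neonatal A and 2 without neonatal D. The lower count of the receptor kinase list was 1 without adult B, adult C, neonatal A or neonatal C, and that of the BMP list 1 without adult B, adult C or neonatal C.

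Of 35 ion channel and transmitter receptor genes of OPCs 8 were higher and 1 lower, with a median of 0.28. Kcnj10, the Kir4.1 potassium channel that sets the resting potential of glia (chr1:172341210-172374085), was at 1075, 1024, 1298 and 1241 CPM in adult libraries and 438, 694, 495, 547 and 464 CPM in neonatal libraries (1.11 ± 0.13, adjusted p = 1.63e-05). The lowest adult library, B, lay well above the highest neonatal one, also B. Gabrb1, a GABA-A receptor subunit, was at 7.47, 22, 32.6 and 22.8 CPM against 2.51, 15.2, 3.18, 3.35 and 2.7 CPM (1.95 ± 0.53, adjusted p = 0.00915), with neonatal B far above the other neonatal libraries and above adult A. The sodium channel gene Scn2a was higher (17.4 ± 3 against 11.6 ± 2.45 CPM, 0.55 ± 0.17) and the potassium channel gene Kcna6 lower (65.1 ± 22 against 102 ± 21.2 CPM, -0.68 ± 0.19). Scn2a lost its call without adult C, neonatal C or neonatal D, and Kcna6 without adult B or C. The higher count was 2 without adult C, 3 without neonatal C or D and 1, which is Kcnj10, without adult C and D, and the lower count was 3 without adult A.

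Extracellular matrix and integrin genes were called higher in 4 and lower in 2 of 36. The higher count is close to the share over all tested genes (10.5%) and the lower count is below it (14.3%). Lamc1, the gamma chain of laminin, was at 512, 563, 491 and 508 CPM against 225, 390.3, 309.6, 261 and 343 CPM (0.74 ± 0.12, adjusted p = 0.000414), and Timp2, a metalloproteinase inhibitor, at 203 ± 38.3 against 135 ± 23.7 CPM (0.56 ± 0.18, adjusted p = 0.0226). The higher count was 14 without neonatal B and 7 without adult A, but 1 without adult C and 2 without adult D or neonatal C. The lower count was 0 without adult C or neonatal C and 1 without adult A, adult B or neonatal A, D or E. Timp2 lost its call without adult C or D or neonatal D or E. Of 21 genes of the integrated and heat stress responses 1 was higher and 4 lower, among them Atf4, the transcription factor of the integrated stress response (145 ± 19.3 against 218 ± 29.9 CPM, -0.61 ± 0.14), and Asns, a target of it (61.8 ± 12.2 against 105 ± 14.4 CPM, -0.79 ± 0.18, adjusted p = 0.00314). Of 22 immediate-early genes 1 was higher and 2 lower, both below the shares over all tested genes. The lower ones were Ier2 (8.79 ± 1.07 against 17.9 ± 3.94 CPM, -1.05 ± 0.28) and Nr4a1 (-0.66 ± 0.22). Nr4a1 lost its call without adult B or C or neonatal A or C, and both it and Ier2 without adult A and B. The higher member, the transcription factor Klf4, was called in no set that left out adult B, C or D or neonatal A, C, D or E. The higher stress gene, the antioxidant enzyme Nqo1, was not called without adult C, and 2 were without adult A, adult D or neonatal B. None of the stress and immediate-early genes named here was called without adult C and D.

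Developmental transcription factors differed in both directions, 10 of 27 tested being higher and 5 lower. Tfap2a, known from neural crest and epidermis (chr13:40715302-40738376), was at 5.92, 0.502, 3.63 and 5.31 CPM in adult libraries and 0.298, 0.389, 0.179, 0.0913 and 0.154 CPM in neonatal libraries (4.06 ± 0.65, adjusted p = 0.000339). Adult B was the lowest of its age by far and lay just above neonatal B, the highest of its age. Pax9, known from pharyngeal and skeletal development (chr12:56691767-56712822), was at 2.79, 3.14, 2.44 and 3.6 CPM against 0.213, 0.746, 0.429, 0.183 and 0.0385 CPM (3.16 ± 0.53, adjusted p = 0.000439). Isl2, a LIM homeobox gene of motor neurons, was at 4.51, 1.66, 3.95 and 3.64 CPM against 0.298, 1.07, 0.107, 0.183 and 0.347 CPM (3.04 ± 0.59). Six3, described above, was among the 5 lower members. Otx2, a gene of the anterior brain, was at 0.0851, 0.13, 0.179, 0.457 and 0.193 CPM in neonatal libraries and at 0 in all adult ones, levels at which no fold change is given. Hoxa5, a gene of the hindbrain and spinal cord, was at 29.3, 3.05, 15.4 and 19.8 CPM against 2.13, 8.17, 0.179, 0.152 and 0.0771 CPM and missed the threshold (2.94 ± 1.13, adjusted p = 0.0557). The higher count was 5 without adult C and 4 without adult C and D, with Tfap2a, Pax9 and Sp9 among the latter.

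The imprinted genes of the list, which are expressed from one parental copy in at least some cell types, were lower in 7 and higher in 3 of 25 tested, with a median of -0.31. Ndn, a growth-restraining protein of the Prader-Willi region (chr7:62346569-62350262), was at 27.5, 36.2, 33.7 and 35.1 CPM in adult libraries and 87, 61.6, 134, 141 and 89.7 CPM in neonatal libraries (-1.65 ± 0.23, adjusted p = 9.55e-05). Its neighbour Magel2 (chr7:62377010-62381640) was at 0, 0.0628, 0 and 0 CPM in adult libraries, which is 2 reads in all, and at 0.426, 0.13, 1.25, 0.883 and 1.31 CPM in neonatal ones, and no fold change is given. Zdbf2 (chr1:63273265-63314576), a paternally expressed gene, was at 0.168, 0.44, 0.0265 and 0 CPM against 2.38, 1.88, 3.97, 2.86 and 7.51 CPM (-4.53 ± 0.67, adjusted p = 0.000172). Of the Dlk1-Dio3 cluster, Rian was at 3.46, 2.39, 2.78 and 2.97 CPM against 5.11, 4.21, 8.64, 7.82 and 6.78 CPM (-1.19 ± 0.23, adjusted p = 0.00108) and Meg3 at 4.4 ± 0.635 against 8.13 ± 2.52 CPM (-0.91 ± 0.24). In each of these genes the highest adult library was below the lowest neonatal one. Kcnq1ot1, Impact and Ube3a were the higher members. The higher count was 1 without any of adult B, adult C, neonatal C or neonatal D and 6 without neonatal B, the lower one stayed between 6 and 8, and without adult C and D they were 0 and 3.

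Genes of the juvenile growth network, which decline after birth in many organs, were higher in 3 and lower in 2 of 14. Hmga1, a chromatin architectural protein, was at 18.1, 17.1, 13.5 and 27.9 CPM against 29.8, 37.2, 45.1, 50.1 and 38.4 CPM (-1.10 ± 0.20, adjusted p = 0.000847). Igdcc3, a membrane protein of that network, was instead higher (12.8 ± 4.92 against 6.46 ± 0.874 CPM, 0.95 ± 0.23) and lost its call without adult C. The higher count was 0 without adult C and without adult C and D, and 5 without neonatal B.

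Whether the age difference under KATi was another one than in DMSO was tested as the difference of both age differences, which share no library but share letters. The test called 0 of 20259 genes with edgeR and 0 with DESeq2, while 251 genes (1.24%) had an unadjusted p under 0.05 in edgeR and 269 in DESeq2. That number at an unadjusted p ranged from 181 to 586 when single libraries were left out, the highest without neonatal KATi B, 446 without adult DMSO D, 422 without adult DMSO B and 409 without adult KATi D, and the test still called 0 genes each time. Against SUV420i 0 genes were called by either tool, with 177 (0.874%) and 198 at an unadjusted p under 0.05. Where no gene differs, a share of about 0.05 of genes would fall under that threshold, and these shares lay below it. Both tests left the shared letters unused. With letters as blocks the edgeR numbers were 517 against DMSO and 453 against SUV420i, still with 0 genes called. The 0 calls thus do not show that the age differences are equal. In edgeR the age difference itself called 2584 genes (12.8%) in DMSO, 6.54% higher and 6.22% lower, 5560 (27.4%) under SUV420i and 524 (2.59%) in the 2 adult and 3 neonatal untreated libraries. Of the 5041 genes called under KATi, 2085 were also called in DMSO (41.4% of the KATi and 80.7% of the DMSO genes), all in the same direction, and 3989 under SUV420i (79.1% and 71.7%), again all in the same direction. In untreated cultures 129 of them were also called (2.56% of the KATi and 24.6% of the untreated genes), 65 in the same direction, and 2426 of the 5041 had the same sign. A gene called under KATi and not in DMSO is therefore not shown to differ between them.

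The list counts in DMSO stood close to those under KATi for cholesterol synthesis (21 of 26 lower in both, medians -0.87 in DMSO and -0.80 under KATi) and for G2 and mitosis (20 of 42 lower in both, -0.60 and -0.50). For S phase genes 16 were called lower in DMSO and 26 under KATi, with medians of -0.59 and -0.67. Astrocyte markers were called higher in 16 and 15 of 22 (medians 1.10 and 0.84), and interferon response genes in 12 and 14 of 28 (0.91 and 0.75). The median difference of the age differences, KATi minus DMSO, was 0.04 for cholesterol synthesis, -0.06 for S phase and -0.14 for astrocyte markers, beside median standard errors of 0.24, 0.33 and 0.46. In untreated cultures the medians had the opposite sign to those under KATi for these lists: 0.56 for cholesterol synthesis, 0.85 for S phase and -0.60 for astrocyte markers. The untreated cultures have no time given and their difference from KATi was not tested here.

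For single genes the interval of 2 standard errors around the difference says how far apart both age differences could lie. For Cspg4 it was -0.75 to 0.80 around 0.03 ± 0.39, for Mvk -0.49 to 0.27 around -0.11 ± 0.19, for Mcm7 -0.71 to 0.27 around -0.22 ± 0.25 and for Kcnj10 -0.24 to 0.50 around 0.13 ± 0.18. Narrow intervals such as those of Kat7 (-0.26 to 0.14 around -0.06 ± 0.10) and Brd3 (-0.26 to 0.17 around -0.05 ± 0.11) leave little room, and wide ones such as that of Mbp (-2.59 to 3.20 around 0.31 ± 1.45) and Gpr17 (-2.84 to 2.75 around -0.04 ± 1.40) leave much. Among the named genes Ermn, a cytoskeletal protein of late oligodendrocytes, was the only one whose interval left out 0 (0.41 to 3.51 around 1.96 ± 0.77, unadjusted p = 0.017, adjusted p = 1). It stood at 0.37, 0.0314, 0.662 and 0.408 CPM in adult libraries and 0.0851, 0.0324, 0.179, 0 and 0.0385 CPM in neonatal KATi libraries, where 1 read is worth about 0.03 CPM. Erbb4 had an age difference of 1.16 ± 0.27 under KATi and 0.42 ± 0.27 in DMSO, and Trp53 of -0.62 ± 0.13 and -0.32 ± 0.13, and neither difference of the differences passed the test (0.74 ± 0.39, adjusted p = 1, and -0.30 ± 0.18, adjusted p = 1).

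**Figure D5:**
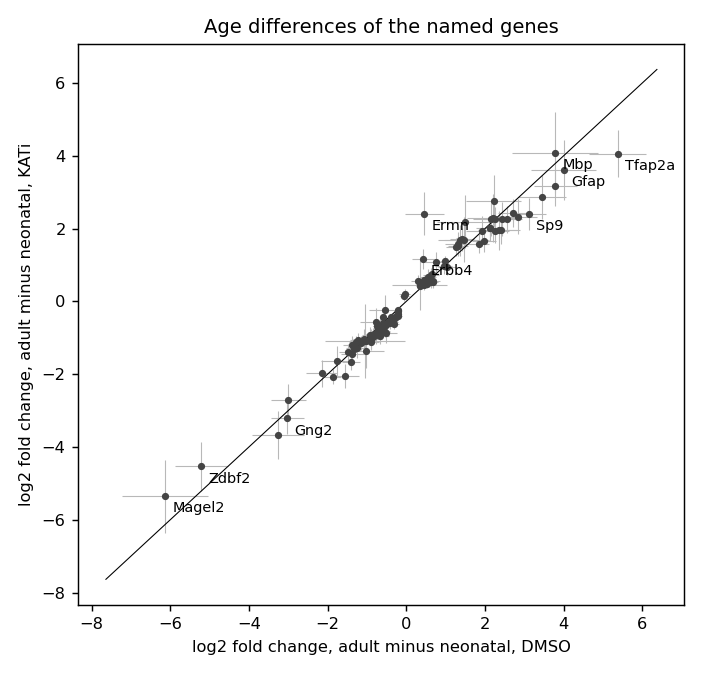
Log2 fold change, adult minus neonatal, of the 111 named genes in DMSO (x axis) and under KATi (y axis), with bars of 1 standard error and the line of equal values. The points follow the line; Ermn (2.41 under KATi and 0.45 in DMSO) and Tfap2a (4.06 and 5.37) are among those farthest from it.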

How the data were processed

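The authors deposited raw counts, whole numbers that differ in their total between libraries, for 56980 gene identifiers. Tools named in the submitters' processing notes are featureCounts, Subread, CASAVA 1.8.2 and DESeq2, with mm10 as build and no role stated. Strand setting and annotation release: not given in the sources used here. Symbols and coordinates came from GENCODE M21 on GRCm38, the assembly mm10 denotes, which matched 52125 identifiers and left 4855 without a symbol (2.37% of counts, kept in the tests). Promoter sequences came from RefSeq on GRCm38.p6.

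The filter filterByExpr with a minimum count of 10 kept 20259 genes, which hold 99.95% of counts. All 32 libraries entered 1 edgeR quasi-likelihood fit with 8 groups, trimmed mean of M-values factors and no block (edgeR 4.0.16, R 4.3.3). Groups and letters came from the labels. The age difference under KATi, the age differences in DMSO, SUV420i and untreated cells, and 2 differences of age differences were contrasts of that fit, with p-values adjusted by Benjamini-Hochberg over all 20259 genes and a threshold of 0.05. SE is the fold change divided by the root of F. CPM used the plain library totals. Alternatives were other size factors, other filters, DESeq2 1.42.0, a fit of the compared groups alone, a replicate block, and libraries left out. Same-letter libraries of KATi and SUV420i deviated together (correlations 0.16 to 0.73), though neonatal KATi D correlated more with neonatal SUV420i C (0.68) than with D (0.16). Between KATi and DMSO the same-letter correlations were -0.05 to 0.79. Having no block, the fit counted same-letter libraries as independent in its shared estimate of spread. With the KATi libraries fitted alone, 2090 genes were called instead of 5041. On counts simulated for this comparison over 19975 genes, edgeR recovered 28% of genes changed 1.5-fold, 45.8% at 2-fold, 76% at 3-fold and 89.8% at 4-fold, and called 3 unchanged genes. At most 50 genes were changed at each fold there, and every library was drawn independently. In the data 24.9% of tested genes were called and letters correlated across treatments, so these rates need not carry over to the calls reported here.

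The 34 gene lists (783 symbols, 724 tested) and the groups were chosen with earlier results of these data known. Named genes were the 10 largest rises and falls that averaged 2 or more on the log2 CPM scale and did not overlap between the ages (predicted, mitochondrial, ribosomal protein and pseudogenes left out), of each list the called members with the smallest adjusted p (up to 2, or 4 where 8 or more were called), any called difference of age differences (there was none), and always Pdgfra, Cspg4, Gpr17, Mbp, Mki67, Hes5, Kat5, Kat2b, Ep300, Crebbp and Gfap. Other genes with values, Aqp4, Aldh1l1, Olig2, Ptprz1, Ednrb, Map2, Gad1, Pcna, Mcm6, Cdk1, Cdkn1a, Fdft1, Dhcr7, Hmgcs1, Kat2a, Dnmt1, Uhrf1, Id4, Isl2, Otx2, Hoxa5 and Meg3, were chosen after their values were seen. Some genes chosen this way are left unreported here.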

Additional observations from a re-analysis of the deposited data

Results flagged for a closer look

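Of 222 groups of libraries checked (each named gene at each age under KATi), 12 held a library whose level stood apart from the others of its group, where chance alone marks about 1 in 20 groups. In 8 of the 12 it was neonatal library B, which lay toward the adult levels in 7 of these genes and away from them in Ier2.

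Neonatal B stood at 3.47 CPM of Sp9 (the other 4 neonatal libraries 0.791 to 1.4), 31.6 CPM of Sulf1 (others 5.28 to 10.6) and 6.64 CPM of Pcdhb9 (others 1.27 to 2.6). It stood at 185 CPM of Abca1 (others 33.8 to 67.2), 49.3 CPM of Cp (others 7.25 to 11.7) and 15.2 CPM of Gabrb1 (others 2.51 to 3.35). Timp2 was at 177 CPM there (others 118 to 132) and Ier2 at 24.8 CPM (others 15.7 to 17). Without neonatal B the calls of these 8 genes all held.

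Adult A stood at 6.96 CPM of Gbp7 (the other 3 adult libraries 12.8 to 13.5) and 72.6 CPM of Notch3 (others 137 to 147), in both toward the neonatal levels. Adult B stood at 0.471 CPM of Egfl7 (others 0.98 to 1.08) and at 0.0628 CPM of Magel2, which is 2 reads, the other adult libraries being at 0.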

How the results depend on the processing

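The count of 5041 genes called under KATi was 2090 when the KATi libraries were fitted alone, 1869 with a replicate block (962 higher, 907 lower) and 672 without adult letters C and D, of which 648 were called in the same direction with all libraries. Leaving out 1 library gave 2501 (without adult C) to 6400 (without neonatal B). Other size factors (4912), no filter (3707), a minimum count of 50 (4879), DESeq2 (5544) and leaving out adult letters A and B (4706) stayed within 1.5 times. The share of higher genes was 42.4%, and 48.7% with other size factors, 48.9% with DESeq2, 51.5% with the block, 50.6% without adult B, 32.2% without adult C and 34.6% without neonatal D. Same-letter adult and neonatal libraries had correlations of 0.13, 0.41, -0.25 and 0.38. These mixed values do not settle whether letters pair the ages, and not every library correlated best with its own letter. Both tests of a difference between age differences called 0 genes under every alternative, block included. At an unadjusted p under 0.05 the test against DMSO had 251 genes, 517 with the block, 930 with no filter, 91 with a minimum count of 50, 137 with those groups fitted alone, 145 without adult letters A and B and 399 without C and D. Against SUV420i it had 177, and 453 with the block, 896 with no filter and 60 with a minimum count of 50. Of 105 named genes called, 46 kept the call under every alternative, and the block ended 23 calls, among them those of Acaca, Acly, Aspa, B2m, Brd3, Egfl7, Ehmt2, Fasn, Hdac3, Igdcc3, Kat5, Kat7, Mycn, Nptx2, Nr4a1, Pdk1, Prom1, Rgs5, Ruvbl1, Scn2a, Tap2 and Timp2. Fitting the KATi libraries alone ended 14 calls, among them those of Brd3, Egfl7, Fzd3, Hdac3, Kat5, Kcna6, Notch3, Pdk1, Rgs5, Scn2a, Slco1a4 and Tap2, and using no filter ended 4, among them those of Brd3, Egfl7 and Rgs5. Leaving out adult letters C and D ended the most, 54 calls, and that of Mbp besides. The direction turned for Mbp without adult letters C and D (-0.15) and for Mki67 without neonatal A, the values of Mki67 ranging from -0.40 to 0.046 without single libraries. The cause of these shifts was not tested, beyond the fewer libraries that each leaves. At these depths levels near 0.1 CPM rest on a few reads.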

Other observations

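Some classes of genes, chosen after the values were seen, differed in their shares of called genes between adult and neonatal KATi cells. Of 13 mitochondrially encoded messenger RNAs 10 were called higher in adult cells and 0 lower, with a median log2 fold change of 0.68. Of 81 cytosolic ribosomal protein genes 45 were called lower and 0 higher, with a median of -0.52. The mitochondrial count was 5 without adult B, 4 without adult C, 6 without any of neonatal C, D or E, 5 without adult A and B and 1 without adult C and D. The ribosomal protein count was 21 without adult B, 29 without adult C, 27 without neonatal C and 3 without adult C and D. Ribosomal protein genes have many pseudogene copies that may share their reads.

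Long intergenic RNA (lincRNA) and antisense genes were mostly higher and processed pseudogenes mostly lower where they were called. Of 723 lincRNA genes 86 (11.9%) were higher and 17 (2.35%) lower, and of 943 antisense genes 113 (12%) were higher and 13 (1.38%) lower. Of 1446 processed pseudogenes 55 (3.8%) were higher and 284 (19.6%) lower, beside 11% and 17.4% of 14552 protein-coding genes. The higher shares of lincRNA and antisense genes lay near the 10.5% over all tested genes, and their lower shares below the 14.3%. The median of the average log2 CPM was -0.67 for lincRNA and -0.84 for antisense genes, against 0.59 for pseudogenes and 4.73 for protein-coding genes. The part of level in these shares was not tested. Without adult C the counts were 41 and 7 for lincRNA, 38 and 6 for antisense genes and 10 and 159 for pseudogenes. Without neonatal C they were 53 and 8, 65 and 5, and 25 and 172. Without adult B they were 9 lower lincRNA genes, 73 and 3 antisense genes, and 32 and 156 pseudogenes, and without adult C and D 13 and 2, 17 and 2, and 5 and 16. Leaving out adult A gave 32 lower lincRNA genes, adult D 9 lower lincRNA and 8 lower antisense genes, neonatal B 35, 20 and 85 for lower lincRNA, lower antisense and higher pseudogenes, and neonatal D 11 lower lincRNA genes, 74 and 8 antisense genes and 25 higher pseudogenes.

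Protein-coding genes called higher had a median gene span of 37.3 kb and a median exonic length of 5.55 kb. Those called lower had 14.7 kb and 3.5 kb, and all tested ones 25 kb and 4.46 kb. These medians are a description of the called sets, and a test of length was not run.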
